A study of Mus musculus with 3 samples.

Results

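The 8 genes described here serve the making, release and reception of hedgehog signals: the coreceptors Boc, Cdon and Gas1, the acyltransferase Hhat, the transporter Disp1 and the secreted carriers Scube1, Scube2 and Scube3. They were taken by gene name from the probes of 3 one-colour Agilent arrays, which gave 16 of 55680 probes and 8 of 34797 gene names. The arrays measured RNA of the posterior frontal suture, the midline suture between the frontal bones of the mouse skull. One array was hybridised for each of 3 groups of C57BL/6 mice, namely wild type (Runx2+/+) at postnatal day 5, wild type at day 7 and Runx2+/- at day 7. Runx2 encodes a transcription factor without which osteoblasts do not form, and the labels name neither the kind of Runx2 allele nor the number of mice behind an array.

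Hedgehog proteins are secreted signals that carry lipids. Hhat adds palmitate to the ligand in the sending cell, Disp1 moves the lipid-bearing ligand out of the membrane, and Scube proteins take it up outside the cell. On the receiving cell Boc, Cdon and Gas1 bind the ligand together with the receptor Ptch1, which relieves Smo and lets Gli factors act. In the skull, Ihh made by bone-forming cells is a known regulator of osteoblast differentiation.

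Boc, Disp1 and Scube1 had 1 probe each, Cdon and Scube2 had 2, and Gas1, Hhat and Scube3 had 3. Each probe is a 60-base oligonucleotide spotted once per array. The sequences are shown because probes of the same gene disagreed and differed in base composition. Capitals mark G and C. Probes further 5′ in a gene are whole, and for the probe nearest the 3′ end of a gene, or its only probe, the first 30 bases are given.
Gas1, 3′ probe A_51_P157083: aaaGttaCCatGGtGttGaaCaatGCatGt
Gas1, 5′ probe A_55_P2025562: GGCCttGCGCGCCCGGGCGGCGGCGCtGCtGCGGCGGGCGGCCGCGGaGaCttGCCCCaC
Hhat, 3′ probe A_55_P1959393: atCCCaaGGtCCCatGaCttttaCtCaGtG
Hhat, 5′ probe A_55_P2015143: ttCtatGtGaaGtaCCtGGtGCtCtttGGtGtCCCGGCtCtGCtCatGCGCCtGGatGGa
Scube3, 3′ probe A_55_P2167530: GtGGtaCaCaGaGtattttGCaCttGGGGa
Scube3, 5′ probe A_55_P2167525: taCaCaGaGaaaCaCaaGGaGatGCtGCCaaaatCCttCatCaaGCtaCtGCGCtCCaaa
Boc, only probe A_55_P2067652: GCCGaaGCtaatatCCCaGaaaGaCtatat
The 5′ probe of Gas1 is 85% G and C and its 3′ probe 38.3%. For Hhat these shares are 55% and 35%, for Scube3 45% and 35%, and the Boc probe has 35%.

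With 1 array per group there was no biological spread to test against, and no p-value is given. The error given is technical. Probes spotted at least 5 times gave a spot SD for log2 differences of 0.25 in the age contrast of wild type, 0.22 in the genotype contrast at P7 and 0.20 in the contrast of Runx2+/- with the younger wild type. Processed signals are in intensity units with the error the scanner software assigned to the spot. Levels are on a log2 scale on which 0 is the 75th percentile of the array, an intensity of 52.1 for P5 wild type, 22.8 for P7 wild type and 124.3 for Runx2+/-, the order used throughout. The lowest signal of a probe well above background lay at -2.12, -0.78 and -3.25 on that scale, and 29.2% of all probes exceeded background on the P7 wild-type array, against 40.1% and 47.3% on the others. Of the 16 probes, 11 were well above background on all 3 arrays, 2 on 2 arrays and 3 on none. Those 3 were 1 probe each of Gas1, Hhat and Scube3.

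The summed signals of cell type markers differed between the arrays, as multiples of each array's 75th percentile. All 6 osteoblast markers were above background on each array, with sums of 879.3 at P5 wild type, 1328 at P7 wild type and 264.9 in Runx2+/-. The 5 neutrophil markers summed to 821.2, 66.8 and 324.4, and the 5 endothelial markers to 54.9, 64.2 and 35.02. Chondrocyte markers (4, 3 and 5 of 5 above background) summed to 11.4, 21.1 and 30.5, meningeal markers (4, 3 and 4 of 4) to 67.0, 30.8 and 62.9, and neuronal and glial markers (5, 3 and 4 of 5) to 275.9, 251.6 and 62.6. The 4 fibroblast markers, all above background, summed to 847.7, 1059 and 965.1. Suture mesenchyme markers (4 of 5 on each array, Axin2 on none) summed to 15.9, 22.8 and 16.8. That set includes Gli1, at log2 levels of 2.52, 3.33 and 1.64, which is also counted among the other hedgehog genes below. Skeletal muscle markers (2, 1 and 2 of 5) summed to 5.88, 3.90 and 3.32, with Myh3, Myog and Ckm above background on no array. Sums weigh the brightest markers most. In the genotype contrast 5 osteoblast markers were at least 2-fold lower and 0 higher, and 5 neutrophil markers higher and 0 lower. For endothelium 2 were higher and 1 lower, with a median log2 difference of -0.05, and the fibroblast median was 0.28. Chondrocyte markers had 2 higher and 0 lower, and meningeal markers 1 and 0. Neuronal and glial markers had 0 higher and 2 lower, and so did suture mesenchyme markers. Against P5 wild type the Runx2+/- medians were -2.14 for neurons and glia, -1.58 for osteoblasts, -1.35 for meninges and -1.005 for neutrophils. They were 1.82 for chondrocytes, 0.74 for endothelium, 0.45 for fibroblasts and -0.10 for suture mesenchyme. The part of cell composition in the differences below was not tested. In bulk tissue fewer cells of a type and less RNA per cell cannot be told apart.

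**Figure D1:**
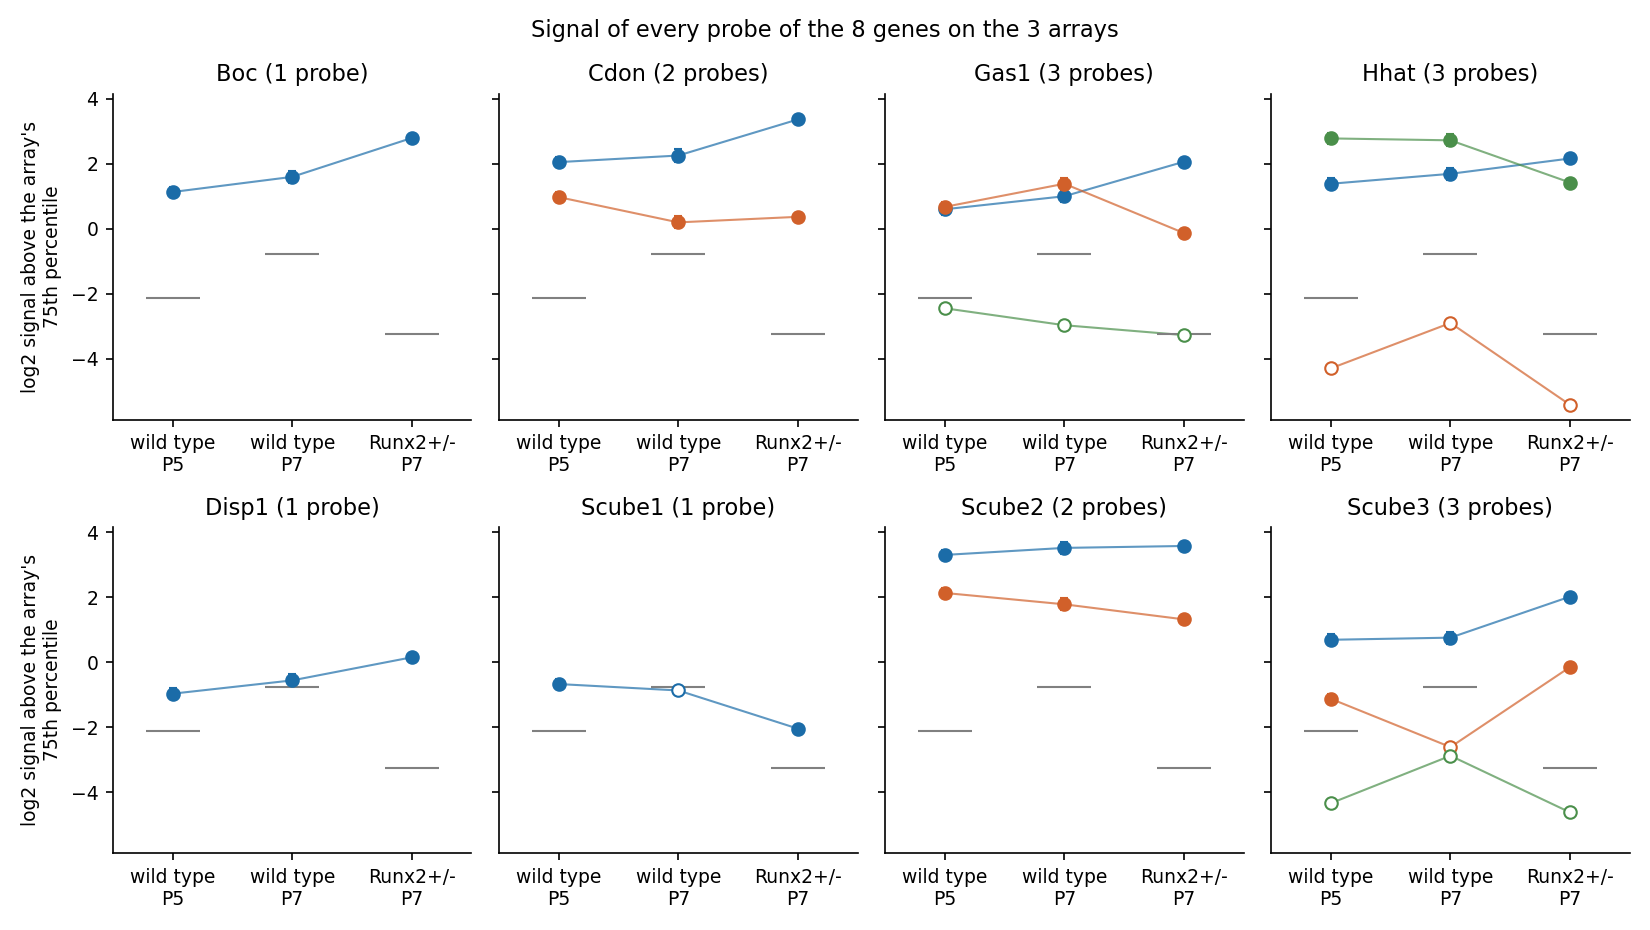
Level of each probe of the 8 genes (vertical axis, log2, with 0 at the 75th percentile of the array) on the 3 arrays (horizontal axis, 1 array per group). Blue marks the probe nearest the 3′ end of the gene, orange the next and green the third, filled points are well above background and open points are not, bars are the SD of repeated spots on that array and grey dashes the lowest level well above background. The blue points of Boc, Cdon, Gas1 and Scube3 are highest on the Runx2+/- array, and the orange point of Gas1 is lowest there.

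The comparison of P7 with P5 asked how wild-type sutures differed with age. Of 12 probes with an order between the 2 arrays, 11 were measured on both and lay within 2-fold, and Scube1 had only a bound, at least 1.08-fold lower at P7. Their log2 differences had a median of 0.21, and 8 were positive and 4 negative. Among all probes with an order, 6.45% were past 2-fold upward at P7, 3.63% downward, and the median was 0.0036. By the brightest probe of each gene the counts for the 8 genes were again 0, where 6.33% of all genes were past 2-fold upward and 3.28% downward. The widest age differences were those of the Cdon 5′ probe, at -0.78, and the Gas1 5′ probe, at 0.71. Centred on probes of similar GC content, they came to -0.86 and 0.06. The 66 probes of at least 75% GC, the range of the Gas1 5′ probe, had a median age difference of 0.65. The other probes above background on both arrays lay between -0.35 and 0.47, and the directions of Boc and of the 3′ probes of Cdon, Hhat, Scube2 and Scube3 were not the same under every processing tried.

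The second comparison asked what set the Runx2+/- suture apart from wild type at P7. Of 12 probes with an order, 4 were at least 2-fold higher in Runx2+/-, against 5.11% of all probes, and 2 were at least 2-fold lower, against 13.5%. The 4 higher probes were those of Boc and the 3′ probes of Cdon, Gas1 and Scube3, and the 2 lower ones were the 5′ probes of Gas1 and Hhat. When differences were centred on the GC content of the probe, both counts became 0 of 11. The higher count was 2 with cyclic loess, 2 with the authors' value table and 1 with normexp background correction and median scaling, and the lower count was 0 with normexp and the 75th percentile. Counts over all probes under these settings are given in the closing section. The median of the 12 was 0.55, and that of all probes with an order was 0.14. The third contrast, P7 Runx2+/- against P5 wild type, avoids the dim P7 wild-type array but mixes age and genotype. In it 5 of 13 probes were past 2-fold upward (8.47% of all probes) and 2 downward (16.2%), and the median was 0.78 where all probes had 0.08. By brightest probes 5 of the 8 genes were past 2-fold upward (8.67% of all genes) and 2 downward (15.4%). The contrasts share arrays and are not independent of each other.

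**Figure D2:**
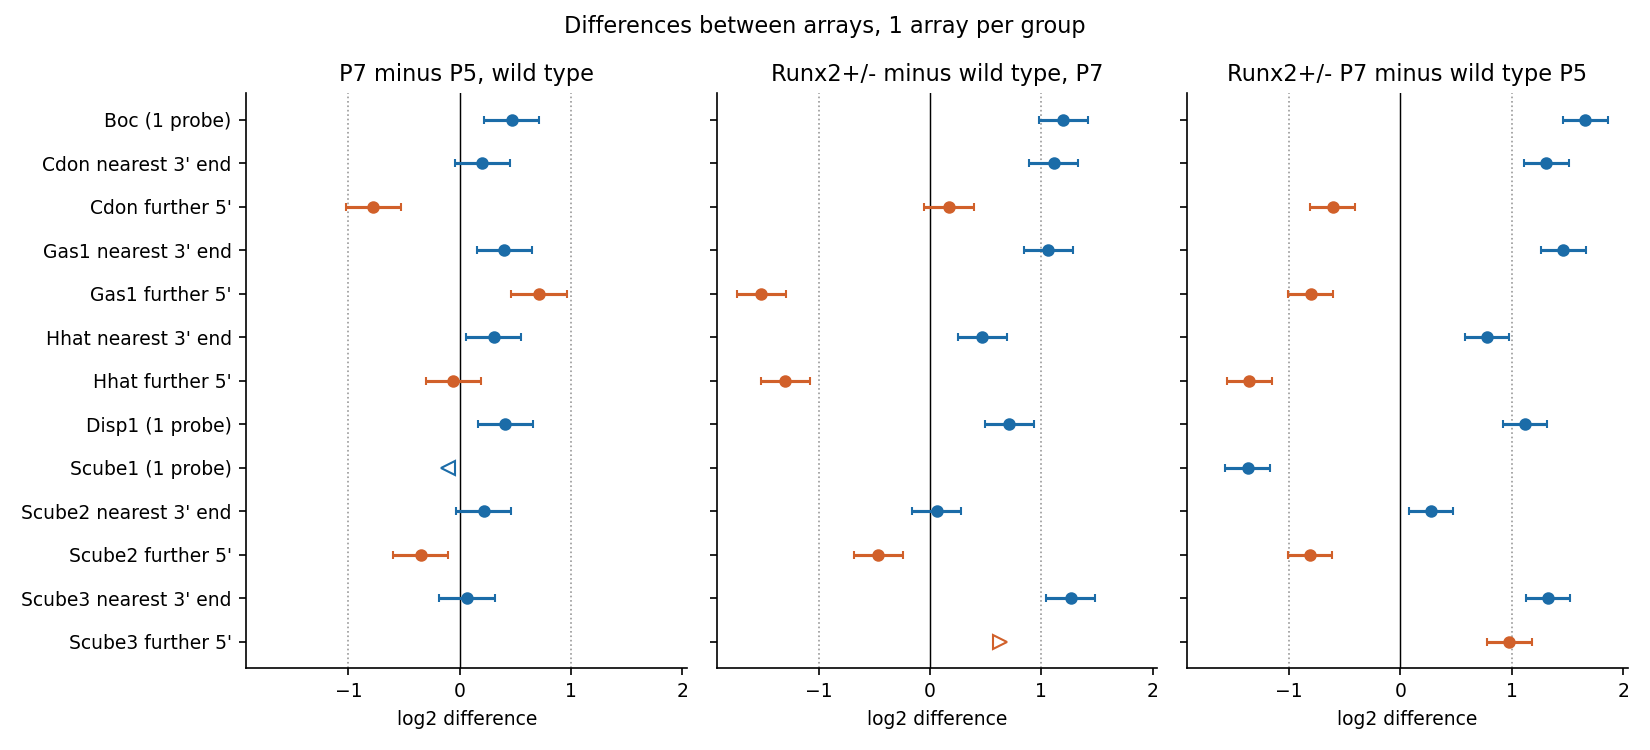
Log2 differences (horizontal axes) of the 13 probes above background on at least 1 array, in the age contrast (left), the genotype contrast at P7 (middle) and Runx2+/- at P7 against P5 wild type (right). Points are differences with the SD expected from repeated spots, open triangles are lower bounds pointing away from 0, dotted lines mark 2-fold, and blue and orange mark the probe nearest the 3′ end and the probe further 5′. In the middle panel the blue point lies further right than the orange one in Cdon, Gas1, Hhat and Scube2.

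Boc, an immunoglobulin and fibronectin repeat protein that binds hedgehog ligands, was read by a single probe (chr16:44485665-44485724, mm9, minus strand). Its signal was 114 ± 11.7 at P5 wild type, 68.9 ± 7.52 at P7 wild type and 862 ± 86.2 in Runx2+/-. On the scaled level this was 1.13, 1.60 and 2.79, highest in Runx2+/-. The genotype difference was 1.20, or 2.29-fold, the age difference 0.47 and the difference between Runx2+/- and P5 wild type 1.66. Each exceeded the spot SD of its contrast, although the age difference came to -0.04 at the lowest under other processing.

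Cdon, the close relative of Boc, was read by 2 probes 3278 bases apart. The probe nearer the 3′ end (chr9:35315141-35315200, plus strand) gave signals of 216 ± 21.8, 108 ± 11.4 and 1279 ± 128, or levels of 2.05, 2.25 and 3.36. This probe was 1.11 higher in Runx2+/- than in P7 wild type, while its age difference of 0.20 was within the spot SD. The 5′ probe (chr9:35311862-35311922) gave levels of 0.97, 0.20 and 0.37, highest at P5. Its genotype difference of 0.17 was within the spot SD, and its age difference was -0.78. The genotype differences of the 2 probes were therefore 0.94 log2 units apart, where the SD from repeated spots was 0.31.

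Gas1, a membrane-anchored coreceptor with no transmembrane segment, gave opposite genotype differences with its 2 measured probes, which lie 869 bases apart. The 3′ probe (chr13:60276399-60276458, minus strand) had signals of 79.0 ± 8.33, 45.6 ± 5.49 and 519 ± 52.0, or levels of 0.60, 1.002 and 2.06. The 5′ probe (chr13:60277268-60277327) had signals of 83.1 ± 8.74, 59.4 ± 6.70 and 114 ± 11.7, or levels of 0.67, 1.39 and -0.13. Runx2+/- was thus 2.09-fold higher than P7 wild type with the 3′ probe and 2.86-fold lower with the 5′ probe. Centred on GC content, the differences were 0.72 and 0.17, so the opposite directions and both 2-fold calls were absent there. Both probes were higher at P7 than at P5 in wild type, by 0.40 and 0.71. Centred on GC content, these age differences were 0.32 and 0.06. The remaining Gas1 probe (chr13:60278243-60278302) read 9.55, 2.91 and 12.9 intensity units and was above background on no array.

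Hhat, the acyltransferase that adds palmitate to hedgehog ligands, also gave opposite directions. Its 3′ probe (chr1:194336802-194336861, minus strand) had signals of 136 ± 13.9, 73.5 ± 8.04 and 556 ± 55.7 and levels of 1.39, 1.69 and 2.16, with a genotype difference of 0.47. Its 5′ probe (chr1:194520055-194520114), 183253 bases upstream in the genome, had signals of 358 ± 35.9, 150.1 ± 15.5 and 333 ± 33.5 and levels of 2.78, 2.72 and 1.42. That probe was 2.46-fold lower in Runx2+/- than in P7 wild type and did not differ between the ages beyond the spot SD, at -0.06. A probe for another Hhat transcript (chr1:194478925-194478984) read between 2.66 and 3.05 intensity units and was above background on no array.

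Disp1, which releases lipid-bearing hedgehog from the sending cell, had a single probe, placed by the files on an unplaced piece of chromosome 1. Its signals were 26.7 ± 3.58, 15.5 ± 3.23 and 138 ± 14.1, or levels of -0.97, -0.56 and 0.15. The P7 wild-type signal lay close to the lowest value well above background on that array, 13.3. Runx2+/- was 0.71 higher than P7 wild type and 1.12 higher than P5 wild type, and the age difference was 0.41. From the errors of the spots, the SE of the genotype difference was 0.33. After normexp background correction with median scaling the genotype difference was -0.38, so its direction depended on the processing.

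The Scube genes, which encode secreted glycoproteins that carry hedgehog away from the cell, did not follow one direction. Scube3 with its 3′ probe (chr17:28311682-28311741, plus strand) gave signals of 84.2 ± 8.78, 38.5 ± 4.82 and 504 ± 50.5, or levels of 0.69, 0.76 and 2.02. It was 2.40-fold higher in Runx2+/- than in P7 wild type, and the wild-type arrays differed by less than the spot SD. Its 5′ probe (chr17:28308201-28308260) read 23.9 ± 4.14 at P5, 3.73 ± 3.21 at P7 wild type, where it was not above background, and 112 ± 11.7 in Runx2+/-. With that probe Runx2+/- was at least 1.55-fold higher than P7 wild type and 1.97-fold higher than P5 wild type. The remaining Scube3 probe (chr17:28305413-28305472) was above background on no array, at 2.58 to 5.06 intensity units. Each Scube3 probe is annotated to a different transcript entry.

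Scube2 was bright with its 3′ probe (chr7:116942234-116942293, minus strand), at 514 ± 51.5, 261 ± 26.3 and 1485 ± 148.5 intensity units. The scaled levels were 3.30, 3.52 and 3.58, and the genotype difference of 0.06 was within the spot SD. Its 5′ probe (chr7:116974314-116974373) gave 228 ± 23.1, 78.4 ± 8.63 and 310 ± 31.2, or levels of 2.13, 1.78 and 1.32, lowest in Runx2+/-. That probe was 0.46 lower in Runx2+/- than in P7 wild type and 0.35 lower at P7 than at P5. Scube1 (chr15:83435445-83435504, minus strand) read 32.7 ± 4.55 at P5, 12.5 ± 3.87 at P7 wild type and 30.2 ± 4.40 in Runx2+/-, and the P7 wild-type value was not above background. Runx2+/- and P7 wild type therefore had no order for Scube1. For Scube1, Runx2+/- was 2.59-fold lower than P5 wild type on the scaled level. This was the opposite direction to Boc, Disp1, Scube3 and the 3′ probes of Cdon, Gas1, Hhat and Scube2. The 5′ probes of Cdon, Gas1, Hhat and Scube2 were also lower in that contrast, at -0.61, -0.80, -1.36 and -0.81.

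Position along the gene and base composition of the probe moved with these differences. In the 4 genes with 2 probes measured on both P7 arrays the 3′ probe had the higher genotype difference, by 0.94 in Cdon, 2.58 in Gas1, 1.77 in Hhat and 0.52 in Scube2. Each gap exceeded the SD of 0.31 from repeated spots. Among the 2358 other genes with several such probes the 3′ probe was the higher in 58.6%, with a median gap of 0.11 (quartiles -0.21 and 0.59), and the gap was at least 1 in 12.85%. Between Runx2+/- and P5 wild type the 3′ probe was the higher in all 5 genes, by 0.35 (Scube3) to 2.27 (Gas1), and in 65.1% of 3786 other genes. In the age contrast of wild type the gap was 0.98 in Cdon, 0.36 in Hhat, 0.57 in Scube2 and -0.31 in Gas1. There the 3′ probe was the higher in 59.35% of 2347 other genes, with a median gap of 0.11. The part of transcript position in the results for these genes was not tested.

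Across all probes measured on both P7 arrays, the median genotype difference fell with GC content. It was 0.34 for the 5366 probes under 40% GC, 0.08 for 7299 probes from 40 to 50%, -0.32 for 2951 probes from 50 to 60%, -1.34 for 227 probes from 60 to 70% and -1.59 for 128 probes above that. Of the last group 82.8% were at least 2-fold lower in Runx2+/-. In the age contrast the median was 0.08 under 40% GC, 0.0085 from 40 to 50% and 0.13 from 50 to 60%. It was 0.35 from 60 to 70% and 0.599 above that, the opposite direction to the genotype contrast. Between Runx2+/- and P5 wild type the median fell from 0.36 under 40% GC to -1.14 above 70%. The age and genotype contrasts share the P7 wild-type array, and its part in the genotype trend was not tested. The probes of Boc, Disp1 and Scube1 and the 3′ probes of Cdon, Gas1, Hhat and Scube3 all had 35 to 38.3% GC. The 2 Cdon probes, whose genotype differences were 0.94 apart, were close in composition, at 35 and 38.3%. The Gas1 5′ probe, at 85% GC, had a genotype difference of -1.52 beside a median of -1.68 for the 67 probes of at least 75% GC. Each genotype difference was also centred on probes of similar GC content, an alternative chosen after seeing the data. The Gas1 5′ probe then turned to 0.17 and the Hhat 5′ probe came to -0.91. Boc came to 0.86, the Cdon, Gas1 and Scube3 3′ probes to 0.77, 0.72 and 0.92, and 0 of 11 probes remained past 2-fold in either direction. Over all probes 464 of 15971 were then at least 2-fold higher and 1914 at least 2-fold lower. Between Runx2+/- and P5 wild type the same alternative gave 3 of 13 probes at least 2-fold higher, where 1262 of 21535 probes in all were, and 2 lower, where 2954 were. Boc at 1.30 and Gas1 (3′) at 1.102 remained past 2-fold upward and Scube3 (5′) entered at 1.06. The Cdon and Scube3 3′ probes, at 0.95 and 0.97, and Disp1, at 0.76, fell short of it. Scube1 at -1.73 and Hhat (5′) at -1.01 were the lower ones.

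**Figure D3:**
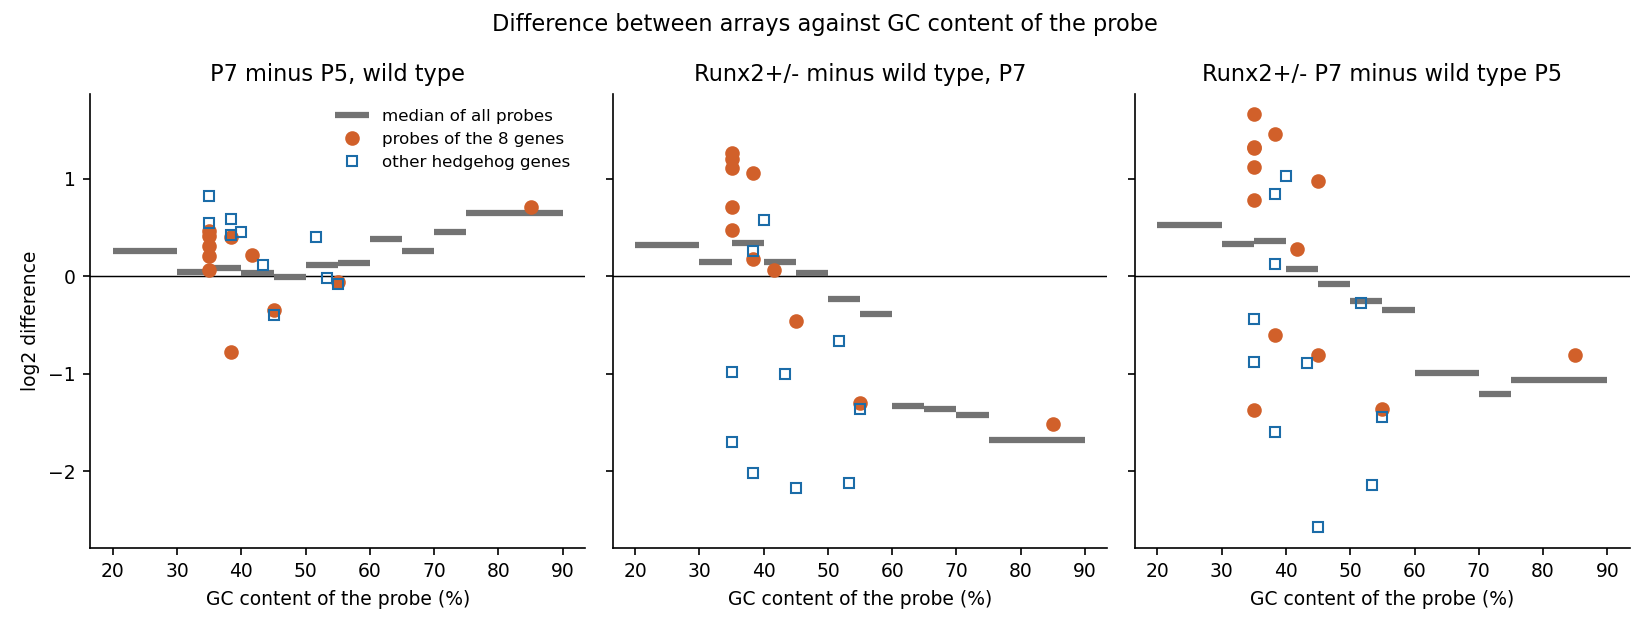
Log2 difference between arrays (vertical axis) against the GC content of the probe in percent (horizontal axis) for the 3 contrasts. Grey bars are medians of all probes measured on both arrays within a GC range, orange points are probes of the 8 genes and blue squares other hedgehog genes by their brightest probe. In the genotype panel the grey medians fall from 0.34 at 35 to 40% GC to -1.68 above 75%, and the orange point at 85% lies at -1.52.

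Of 10 other genes of the pathway with an order between the P7 arrays, 8 had a lower and 2 a higher level in Runx2+/-. The list held 19 genes, each by its brightest probe, and the study's title names the pathway, so its counts are no independent evidence of a direction. Past 2-fold, 6 of the 10 were lower and 0 higher, and their median was -1.18. Of all genes, 13.8% were past 2-fold downward and 5.2% upward. The receptor Ptch1, itself a target of the pathway, had a difference of -2.12, the signal transducer Smo -2.18 and the secreted antagonist Hhip -2.02. The target gene and transcription factor Gli1 had -1.70, the kinesin Kif7, which regulates Gli proteins at the cilium, -1.36 and the ligand Dhh -1.01. The ligand Ihh had -0.98, just short of 2-fold. The ciliary protein genes Evc and Evc2 had -0.67 and 0.58, and the transcription factor Gli3 had 0.26. A second Smo probe gave 0.23. By their brightest probes 4 of 7 of the coreceptor and release genes were at least 2-fold higher and 1, Hhat, at least 2-fold lower. Centred on GC content, 0 of the 11 measured probes of the coreceptor and release genes were past 2-fold in either direction. With differences centred on GC content the other hedgehog genes again gave 6 lower calls, with Ihh in, at -1.32, and Kif7 out, at -0.97. For age, 0 of 10 other hedgehog genes were past 2-fold in either direction. Between Runx2+/- and P5 wild type 1 of 12 was past 2-fold upward, Evc2 at 1.03, and 4 downward. A second Evc2 probe had -1.74 in that contrast, and the second Smo probe had 0.49 beside -2.58 for the brightest. Averaging all probes of each gene gave an upward count of 0 and a downward count of 5. Hhatl, Disp2 and Ptchd2 (Disp3), relatives of Hhat and Disp1, and the receptor gene Lrp2 were above background on no array with their brightest probes, and neither was Shh.

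The genes nearest to the coreceptors in their pair of age and genotype differences were sought among 12794 other genes above background on all 3 arrays, by Euclidean distance over the 2 log2 differences. For Boc they were Ifi203, 2810407C02Rik and Rspo1, at distances of 0.016 to 0.032. For Cdon they were Tnks1bp1, Dnajc13 and C430049B03Rik, at 0.019 to 0.038, and for Gas1 (3′ probe) Mkx, Atat1 and Sipa1l2, at 0.030 to 0.039. These distances are well under the spot SD, and 75, 202 and 161 genes lay within 0.25 of Boc, Cdon and Gas1, so the order among neighbours is not resolved by 3 arrays.

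**Figure D4:**
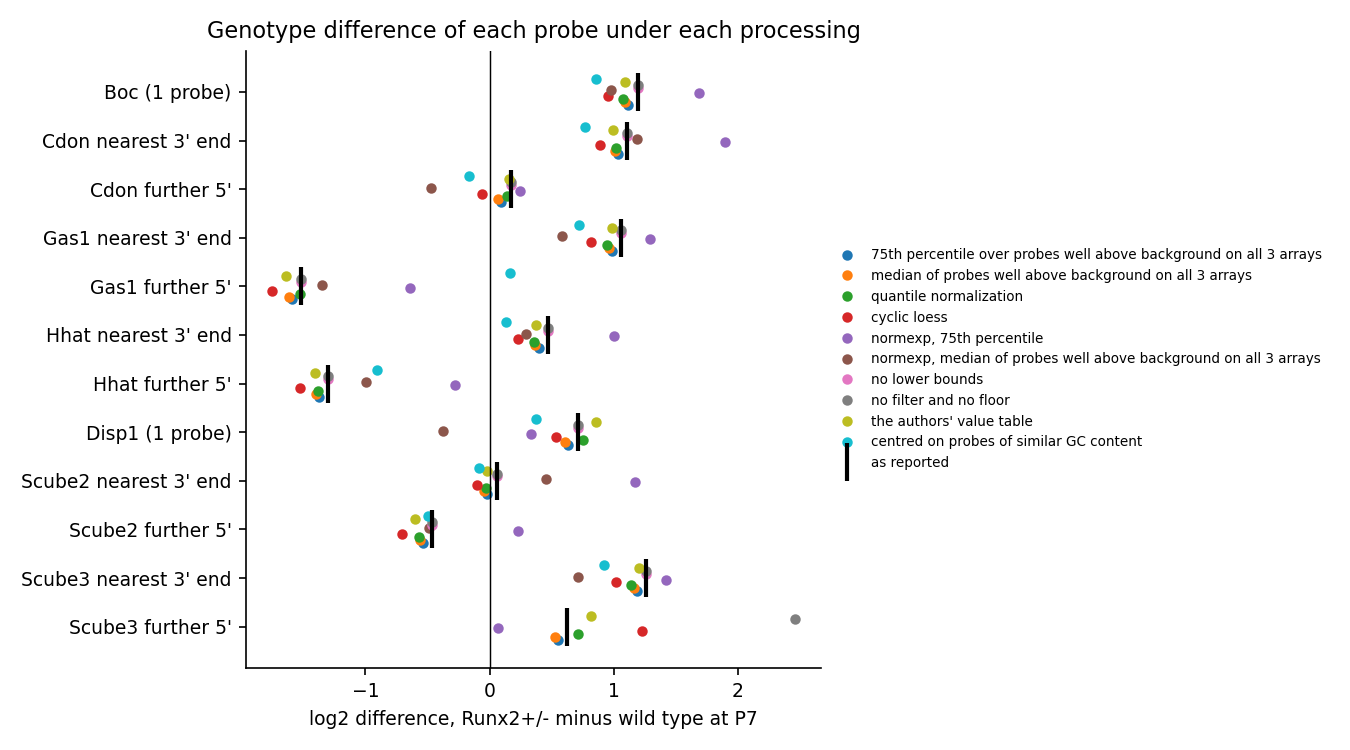
Genotype difference of each probe (horizontal axis, log2 units, P7 Runx2+/- minus P7 wild type) under 10 other ways of processing (coloured points), with the reported value as a black line. Boc and the 3′ probes of Cdon, Gas1, Hhat and Scube3 lie above 0 in every setting drawn, the Hhat 5′ probe lies below 0 in each, and the Gas1 5′ probe lies below 0 in all but the GC-centred one.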

How the data were processed

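Total RNA of each group was made into Cy3-labelled cRNA for a single array, as the labels' protocols describe. The authors deposited scanner files whose processed signal is a background-subtracted, spatially detrended intensity, per the file headers, which name Feature Extraction 10.7.1.1 (9.5.1.1 per the submitters' processing notes) and mm9. A deposited table of the authors' normalized intensity values served as an alternative, and its processing is not given in the sources used here. Control and outlier spots were left out, spots of a probe were averaged on the log2 scale, and each array's 75th percentile was subtracted. A probe counted as above background where at least 50% of its spots were flagged so. A value below background took the higher of itself and the array's lowest value above it, and gave a lower bound only when the other array was higher. Differences of 2-fold were counted. All 16 probes of the 8 genes are named. Other hedgehog genes are named if among Gli1, Ptch1, Ihh, Hhip and Smo or 2-fold apart by genotype. Evc, Evc2, Gli3, Lrp2 and the undetected relatives were named after their values were seen. A gene's value is its brightest probe. The members and lists were chosen with earlier results of these data known. One gene of the pathway list is not reported here and was left out of its counts, and list genes not named stand only in the counts. The exon a probe lies in was not looked up. Array number and signal over background limit precision. All 3 arrays lay on 1 slide. Steps were checked on simulated arrays. Python 3.11.15, R 4.3.3 and limma 3.58.1 were used, and the alternatives are given in the closing section.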

Additional observations from a re-analysis of the deposited data

How the results depend on the processing

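No paired analysis was possible because each group has 1 array. Age counts of probes at least 2-fold apart, 0 and 0, became 2 higher and 1 lower with no filter and no floor, and 1 and 1 at 1.5-fold. With no filter and no floor, 25396 of all 55680 probes were at least 2-fold higher for age and 2334 lower. For genotype, the 4 higher probes became 2 with cyclic loess, 2 with the authors' value table, 1 with normexp and median scaling, 0 centred on GC content and 0 at 3-fold. Of all probes with an order, 741 of 19584 were higher with cyclic loess and 1020 of 18521 with the authors' value table. With normexp and median scaling 532 of 16314 were. The 2 lower became 0 with normexp and the 75th percentile, 1 with normexp and median scaling, 5 with no filter and no floor, 0 centred on GC content and 0 at 3-fold. Of all probes, 683 of 17108 were lower with normexp and the 75th percentile and 2749 of 16314 with normexp and median scaling. With no filter and no floor 29870 of 55680 were lower. For Runx2+/- against P5 wild type, the 5 higher became 2 with normexp and median scaling, 3 centred on GC content and 1 at 3-fold. The 2 lower in that contrast became 4 with cyclic loess, 0 with normexp and the 75th percentile, 5 at 1.5-fold and 0 at 3-fold. Of all probes, 355 of 22373 were higher there with normexp and median scaling. Lower were 4159 of 25323 with cyclic loess and 860 of 22734 with normexp and the 75th percentile. The Gas1 5′ probe reversed from -1.52 to 0.17 centred on GC content. The causes of the other changes were not tested. Normexp with the 75th percentile moved the median genotype difference of all probes measured on both arrays to 0.63, and 88.2% of all 2-fold calls were then higher, against 27.45%. That share was 2.97% against 63.98% for age and 68.4% against 34.4% for Runx2+/- against P5 wild type, where normexp with median scaling gave 16.2%, 36.1% and 7.88% for genotype, age and this contrast. For the latter it was 22.6% and 22.7% with the 75th percentile and the median of probes above background on all 3 arrays. Over the alternatives that give each probe a value, genotype differences ran from 0.86 to 1.69 for Boc, 0.77 to 1.90 for the Cdon 3′ probe, 0.58 to 1.30 for the Gas1 3′ probe, 0.71 to 1.42 for the Scube3 3′ probe and -1.53 to -0.28 for the Hhat 5′ probe. The directions of Disp1, Scube2 and the Cdon 5′ probe were not the same in all of them. Signal over background limits Disp1, Scube1 and the Scube3 5′ probe on the P7 wild-type array.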

Other observations

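Promoter sequences of RefSeq (GRCm38.p6, 250 bases before to 50 after the start) were matched for 7 of the 8 genes by symbol, with 8 promoters in all and none for Boc. The Runx core motif TGTGGT, searched on both strands, was in 0 of the 8 promoters and in 16.8% of all 32851. The Gli motif GACCACCCA, also on both strands and sharing no match with the Runx motif, was in 0 of the 8 and in 0.253% of all. The counts say only that these letters are not in these windows.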
